A study of Mus musculus with 4 samples.

Results

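The Gvin genes encode very large interferon-inducible GTPases, and on mouse chromosome 7 they form a cluster of genes and pseudogenes that lie side by side. The cluster was described here through 6 listed copies, Gvin1, Gm8979, Gm4070, Gm1966, Gm8995 and Gm17757, which are 6 of the 53845 rows of the count table. They were chosen by their gene family and position and by their read counts in these same libraries, in which some of them were known to be much lower in Vil-CREPTKO crypts. Their differences between the groups are therefore given as a description, with no test. RNA-seq was carried out on intestinal crypts, the pits of the gut epithelium in which its stem cells sit, of untreated C57BL/6 mice. There were 2 libraries from WT mice and 2 from Vil-CREPTKO mice, in which the CREPT gene (Rprd1b) carries loxP sites and is cut by a Cre recombinase driven by the villin promoter. This promoter is active in the intestinal epithelium, so lymphocytes and other cells that come along with the crypts keep the gene. In the cross that the paper shows, both parents carried the loxP sites, but the labels do not give the alleles of the WT mice. Mice of both sexes, 6 to 8 weeks old, were used in the work as a whole and crypts were isolated from the small intestine, but the labels give neither an age per library nor the stretch of small intestine taken. Each library was a biological replicate.

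GTPases induced by interferon fall into several families, among them the small immunity-related GTPases (IRG), the guanylate-binding proteins (GBP), the Mx proteins and the very large GTPases. The first 3 of these are known for defending cells against bacteria, parasites and viruses that live inside them, whereas the role of the very large GTPases is much less clear. Gvin1 is the best known of them in the mouse, a giant protein encoded almost entirely by a single long exon, and in humans the corresponding gene is a pseudogene.

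All the annotated copies lay on the minus strand of chromosome 7 (GRCm38 coordinates). Gvin1 (ENSMUSG00000045868, chr7:106156556-106215326) and Gm4070 (ENSMUSG00000078606, chr7:105895139-105953967) are annotated as protein-coding. Gm8979 (ENSMUSG00000095649, chr7:106076751-106084046) and Gm1966 (ENSMUSG00000073902, chr7:106596743-106604035) are unprocessed pseudogenes, that is, duplicated copies held not to make the protein. Gm8995 (ENSMUSG00000063286, chr7:106504239-106511671) is an unprocessed pseudogene marked as transcribed. Gm17757 has no entry of that name in the gene annotation used, and RefSeq lists the name as a synonym of Gm18852 (ENSMUSG00000099241, chr7:105925000-105928592), a processed pseudogene that sits inside Gm4070. A search of every annotated mouse transcript with the Gvin1 transcript, at no less than 80% identity over at least 1000 bases, found 11 such loci, and all 11 were in this cluster. The 5 that were not among the listed copies were 9130208D14Rik, Gm27149, Gm18853, Gm8989 and Gm4759, all annotated as unprocessed pseudogenes. They are given beside the listed copies because their sequence is shared with them.

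The 2 protein-coding copies are nearly the same sequence. Over the 8795 bases of the Gvin1 transcript, Gm4070 differed at 3 positions (99.97% identity), counted from the 5′ end of the Gvin1 transcript as G1895T, G4994A and C7165T, with the Gvin1 base first. A read that lies within the compared transcripts and crosses none of the 3 cannot be told from one of the other gene. The exons as a whole span 9005 bases in Gvin1 and 9275 in Gm4070, and differences outside the compared transcripts were not counted. The stretches of 61 bases around the 3 differences are shown, with each base that differs from Gvin1 in capitals. Around the first difference (Gvin1 at chr7:106163426-106163486 and Gm4070 at chr7:105902009-105902069, minus strand) they read as follows.
Gvin1: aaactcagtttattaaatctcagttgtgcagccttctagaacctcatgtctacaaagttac
Gm4070: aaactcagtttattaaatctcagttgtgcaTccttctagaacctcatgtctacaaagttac
Around the third (Gvin1 at chr7:106158156-106158216 and Gm4070 at chr7:105896739-105896799) they read as follows.
Gvin1: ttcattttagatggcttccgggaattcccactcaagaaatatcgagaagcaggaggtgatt
Gm4070: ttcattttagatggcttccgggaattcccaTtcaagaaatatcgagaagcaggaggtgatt

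The stretch around the second difference shows how the whole cluster resembles Gvin1, since it could be aligned in all 6 listed copies. In Gvin1 it lies at chr7:106160327-106160387 on the minus strand, and the other copies are printed 5′ to 3′ with bases that differ from Gvin1 in capitals.
Gvin1: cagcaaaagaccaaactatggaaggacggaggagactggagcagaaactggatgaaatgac
Gm8979: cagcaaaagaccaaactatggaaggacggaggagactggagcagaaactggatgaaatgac
Gm1966: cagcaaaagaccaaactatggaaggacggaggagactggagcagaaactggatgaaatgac
Gm8989: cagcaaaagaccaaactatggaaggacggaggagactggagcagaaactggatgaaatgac
Gm4070: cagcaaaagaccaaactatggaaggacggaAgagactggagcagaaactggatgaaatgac
Gm17757 (Gm18852): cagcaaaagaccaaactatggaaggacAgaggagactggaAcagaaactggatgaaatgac
Gm8995: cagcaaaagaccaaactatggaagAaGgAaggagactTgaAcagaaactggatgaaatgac
9130208D14Rik: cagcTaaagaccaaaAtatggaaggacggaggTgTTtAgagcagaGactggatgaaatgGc
Here Gm8979, Gm1966 and Gm8989 had the same 61 bases as Gvin1, Gm8995 differed at 5 of them and 9130208D14Rik at 8. Over their whole alignable length, identity to Gvin1 was 96.15% for Gm8979, 92.88% for Gm1966 and 91.78% for Gm8995. It was 89.60% for Gm17757 over 1605 bases. Among the other copies, Gm8989 was closest to Gm8979, at 98.86% identity with 83 differences in 7299 bases.

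How far a read can be placed on 1 copy was put as the share of all 100-base stretches of its transcript that occur in no other annotated gene. This share was 2.30% for Gvin1 and 2.30% for Gm4070, 2.89% for Gm17757 and 29.0% for Gm8979. It was 96.9% for Gm8995 and 98.9% for Gm1966. The read length was not stated, and with stretches of 150 bases the shares were still 3.93% for Gvin1 and 41.6% for Gm8979. With stretches of 50 bases they were 0.869% for Gvin1, 14.2% for Gm8979, 81% for Gm8995 and 82.5% for Gm1966. So the levels of Gm8995 and Gm1966 rest mostly on sequence of their own. Those of Gvin1, Gm4070 and Gm8979 depend on how reads common to several copies were treated, whether divided among them or left out. That treatment was part of the deposited counting and was not described.

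The targeted gene was checked first. Rprd1b stood at 60.5 and 61.6 CPM (counts scaled to the library total after TMM correction) in the WT libraries and at 26.3 and 29.0 CPM in the Vil-CREPTKO libraries, a log2 fold change of -1.14 (SE 0.12, adjusted p = 0.0041 by edgeR). Total counts ranged from 47241049 to 49369315, so the floor of 3 counts that a 0 allows was worth 0.0588 to 0.0690 CPM. With 2 libraries a group, an exact permutation test of a single value cannot go below p = 0.333. WT replicate 2 stood apart in sex-linked genes: it held Xist at 863 CPM against 0.299 to 0.529 CPM in the other 3 libraries, and Y-linked genes at 0 against a sum of 148 to 164 CPM. Xist was lower in Vil-CREPTKO by DESeq2 and at an unadjusted p under 0.05 by edgeR. That difference rested on WT replicate 2, without which the log2 fold change of Xist was 0.017. The pattern is that of a female mouse in WT replicate 2 and of males in the other 3 libraries. Sex and this library therefore cannot be told apart in the differences below that lean on it. The epithelial markers were present in every library, with a summed level of 7148 to 8534 CPM. In bulk RNA, fewer cells of a type and less RNA per cell cannot be told apart, which holds for all the differences below.

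Added together, the 6 copies held 44630 and 36576 counts in WT against 5500 and 5643 in Vil-CREPTKO. As a level, the sum was 874 and 743 CPM in WT and 127 and 115 CPM in Vil-CREPTKO, or 809 ± 92.7 against 121 ± 8.22 CPM (SD, n = 2). Every Vil-CREPTKO library lay far below every WT library. The sum in Vil-CREPTKO crypts was 14.9% of that in WT crypts, a 6.70-fold difference and a log2 fold change of -2.74 (SE 0.18). If shared reads were counted, a sum does not depend on how they were divided among the 6 copies. Reads common with the other 5 copies could still move in or out of it. If shared reads were left out, the sum rests on the sequence that each copy has of its own. Over all 11 loci the sum was 1571 and 1398 CPM in WT and 551 and 603 CPM in Vil-CREPTKO, with a log2 fold change of -1.36 (SE 0.19). This sum too was separated between the groups but moved less. The 5 copies outside the list summed to 696 and 655 CPM in WT and 424 and 488 CPM in Vil-CREPTKO, or 67.5% of WT.

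Gm8979, a pseudogene, carried most of the signal. It held 41246 and 34500 counts in WT against 4295 and 4758 in Vil-CREPTKO, which is 92.4% and 94.3% of the counts of the 6 copies in WT against 78.1% and 84.3% in Vil-CREPTKO. Per kilobase of exon, its level was 103 CPM in WT and 13.4 CPM in Vil-CREPTKO, the highest of the listed copies in both groups. Without it, the remaining copies summed to 66.3 and 42.2 CPM in WT and 27.7 and 18.0 CPM in Vil-CREPTKO, with a log2 fold change of -1.25 (SE 0.25), so the groups were still apart but by less.

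Gvin1, the gene that gives the family its name, held 1743 and 1066 counts in WT against 171 and 135 in Vil-CREPTKO. Its level was 34.1 and 21.7 CPM in WT and 3.93 and 2.75 CPM in Vil-CREPTKO, so it was lower in both Vil-CREPTKO libraries by more than the spread within either group, at 12.0% of WT. Per kilobase of exon, the level of Gvin1 was 3.10 CPM in WT, far under that of Gm8979 in the same libraries, and 0.371 CPM in Vil-CREPTKO.

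Gm4070, its near-identical partner, held 327 and 242 counts in WT against 102 and 71 in Vil-CREPTKO. These were levels of 6.41 and 4.92 CPM in WT and 2.35 and 1.45 CPM in Vil-CREPTKO. The groups did not overlap, and the level in Vil-CREPTKO was 33.5% of WT with a log2 fold change of -1.58 (SE 0.32), a smaller difference than that of Gvin1.

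Because the compared transcripts of Gvin1 and Gm4070 differ at only 3 positions, the counts of the 2 genes were also read as a pair. Gvin1 took 84.2% of the counts of the pair in WT replicate 1 (exact Clopper-Pearson 95% interval 82.6% to 85.7%) and 81.5% in WT replicate 2 (79.3% to 83.6%). In Vil-CREPTKO it took 62.6% (56.6% to 68.4%) and 65.5% (58.6% to 72.0%). The split was thus closer to even in both Vil-CREPTKO libraries. The intervals take every count as a read seen on 1 of the 2 genes. Only 2.30% of the 100-base stretches of each gene are its own, and how the other reads were placed is not known. The intervals may therefore be too narrow, and whether the shift exceeds counting error cannot be told. Added together, the pair stood at 40.5 and 26.6 CPM in WT and 6.28 and 4.20 CPM in Vil-CREPTKO, with a log2 fold change of -2.68 (SE 0.26), close to that of the 6 copies summed. The 4 most alike copies, Gvin1, Gm4070, Gm8979 and Gm8989, summed to 941 and 801 CPM in WT and 127 and 123 CPM in Vil-CREPTKO, with a log2 fold change of -2.80 (SE 0.18).

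**Figure D1:**
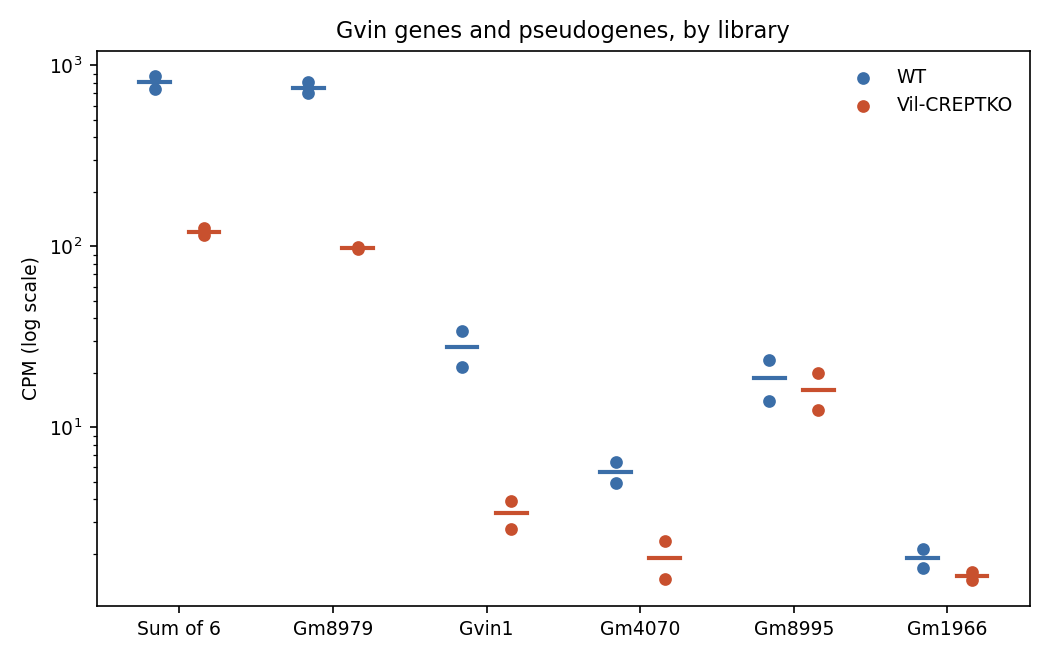
Level in CPM on a log scale of the sum of the 6 listed copies and of the 5 that passed the filter on low counts. Each point is a library and each bar the mean of 2. The sum, Gm8979, Gvin1 and Gm4070 are lower in both Vil-CREPTKO libraries, while the groups overlap for Gm8995.

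The other listed pseudogenes behaved differently. Gm8995 held 1205 and 686 counts in WT against 863 and 609 in Vil-CREPTKO, or 23.6 and 13.9 CPM against 19.9 and 12.4 CPM. Its groups overlapped, and its log2 fold change of -0.22 (SE 0.28) was smaller than its error. The sign turned to 0.21 without WT replicate 1 and to 0.085 without Vil-CREPTKO replicate 2. While it made up 2.70% and 1.88% of the counts of the 6 copies in WT, it made up 15.7% and 10.8% in Vil-CREPTKO, where Gm8979 was lower.

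Gm1966, the copy farthest from Gm4070 along the chromosome, was low in all libraries, with 108 and 82 counts in WT against 69 and 70 in Vil-CREPTKO. These were 2.12 and 1.67 CPM in WT and 1.59 and 1.43 CPM in Vil-CREPTKO. The groups lay close beside each other without overlap, and the log2 fold change was -0.33 (SE 0.34), no larger than its error. Gm17757 had 1 count in WT replicate 1 and 0 counts in the other 3 libraries. It was at or under the floor of 3 counts in both groups, so no fold was given. Only 2.89% of its 100-base stretches are its own, and it differs from Gm18853 at 1 position in 3592 bases. Its counts therefore do not show whether it is expressed.

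In all, 5 of the 6 copies passed the filter on low counts and Gm17757 did not. Of these 5, the groups did not overlap for 4, each lower in Vil-CREPTKO, where this held for 24.2% of all 17504 genes tested. All 5 had a negative log2 fold change, as did 50.9% of all genes tested. Since the copies were listed with these differences in view, nothing is read from the counts. In order of level per kilobase in WT, Gm8979 at 103 CPM was followed by Gvin1 at 3.10, Gm8995 at 2.53, Gm4070 at 0.610 and Gm1966 at 0.259 CPM. In Vil-CREPTKO Gvin1 and Gm8995 changed places, with Gm8995 at 2.17 CPM above Gvin1 at 0.371 CPM. Gvin1 and Gm8995 did not differ in WT beyond their spread, and neither did Gm4070 and Gm1966 in Vil-CREPTKO at 0.204 and 0.207 CPM.

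The copies outside the list were not used in choosing it, but they share sequence, and so reads, with the listed ones, and their tests are not independent of those values. Gm8989, the copy nearest in sequence to Gm8979, held 4743 and 3611 counts in WT against 957 and 1054 in Vil-CREPTKO. It fell by 1.93 on the log2 scale (SE 0.15, adjusted p = 0.00108 by edgeR), with the groups far apart. Gm27149, a short copy, held 2022 and 1789 counts in WT against 348 and 421 in Vil-CREPTKO and fell by 2.19 (SE 0.15, adjusted p = 0.000835 by edgeR). For comparison, 235 of all genes tested (1.34%) were called lower, at an adjusted p under 0.05 and a change beyond 1 on the log2 scale, and 52 (0.297%) were called higher.

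9130208D14Rik, the most abundant of the copies outside the list, held 28549 and 26748 counts in WT against 16938 and 22384 in Vil-CREPTKO. Its log2 fold change was -0.38 (SE 0.17, adjusted p = 0.351 by edgeR), which did not pass, although the groups did not overlap. Per kilobase its level was 75.6 CPM in WT and 58.0 CPM in Vil-CREPTKO, so that in Vil-CREPTKO it stood above Gm8979, which had been the higher of the pair in WT. Gm4759 held 236 and 88 counts in WT against 186 and 84 in Vil-CREPTKO, with a log2 fold change of -0.10 (SE 0.52, adjusted p = 0.959 by edgeR), and here the replicates differed more than the groups. Gm18853, which lies inside Gvin1, had 2 to 7 counts and was not tested.

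The value of Gm27149 carries a limit of its own, because its transcript is the same as the start of 9130208D14Rik, with 0 differences in 1266 bases. The first 61 bases, from the start codon of Gvin1, show this, with bases that differ from Gvin1 in capitals (Gvin1 at chr7:106165200-106165260, Gm8979 at chr7:106083986-106084046, Gm27149 at chr7:106092415-106092475 and 9130208D14Rik at chr7:105831455-105831515, minus strand).
Gvin1: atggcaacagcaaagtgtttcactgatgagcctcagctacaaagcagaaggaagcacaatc
Gm8979: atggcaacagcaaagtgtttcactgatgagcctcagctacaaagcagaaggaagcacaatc
Gm27149: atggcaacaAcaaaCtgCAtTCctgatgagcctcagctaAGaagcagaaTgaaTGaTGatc
9130208D14Rik: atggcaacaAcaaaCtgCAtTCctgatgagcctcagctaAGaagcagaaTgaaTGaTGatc
No 100-base stretch of Gm27149 is its own (0%), so no read that lies wholly within its annotated bases can be placed on it from sequence alone. Reads or read pairs that run past these bases were not examined. Of the counts on Gm27149 and 9130208D14Rik together, Gm27149 held 6.61% and 6.27% in WT against 2.01% and 1.85% in Vil-CREPTKO.

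The copies with most sequence of their own were those that differed least between the groups. Gm1966, Gm8995 and Gm4759, with 96.9% to 100% of their 100-base stretches unique, summed to 30.3 and 17.4 CPM in WT and 25.7 and 15.5 CPM in Vil-CREPTKO. These values overlapped, and the log2 fold change of the sum was -0.21 (SE 0.29). The 5 copies with a log2 fold change under -1 had at most 36.5% of such stretches. Of these 5, Gm8979 and Gm8989 had the most sequence of their own, at 29.0% and 36.5%, and they still differed by -2.95 and -1.93 between the groups. The 9 tested copies share reads and neighbouring positions, so this is a description of them and no more.

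**Figure D2:**
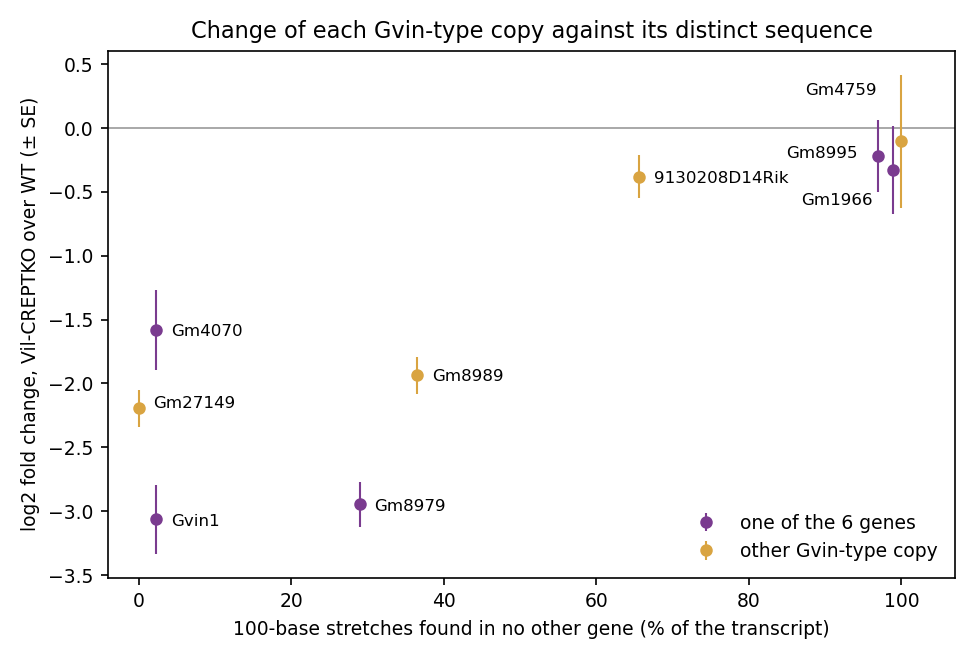
Log2 fold change (Vil-CREPTKO over WT, bars ± SE) of the 9 Gvin-type copies that passed the filter, against the share of each transcript's 100-base stretches that occur in no other gene. The 4 copies at 65.6% or more lie between -0.10 and -0.38, and the 5 copies at 36.5% or less lie at -1.58 or below.

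Position along the chromosome gave the same division. The copies that were much lower, Gm4070, Gm8979, Gm27149, Gvin1 and Gm8989, follow each other in the middle of the cluster. The copies on its outer sides, 9130208D14Rik at one end and Gm4759, Gm8995 and Gm1966 at the other, lay between -0.10 and -0.38. The share of sequence of their own and position therefore go together in these copies, and their parts in the pattern cannot be told apart from these counts. Likeness to Gvin1 did not follow position in every copy. Gm27149, in the middle, was 90.59% identical to Gvin1 over 1265 bases, against 92.88% for Gm1966 and 91.78% for Gm8995.

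Genes of other kinds around the cluster were examined next. Between the outermost listed copies and within 0.5 Mb of them the table held 63 rows that were not Gvin-type, of which 14 passed the filter. Another 40 had 3 counts or fewer in every library, many of them olfactory receptor genes, a family known for its expression in the nose. Of the 14 tested, 2 were lower and 0 higher at an adjusted p under 0.05, against 2.29% and 0.423% of all genes tested. At an unadjusted p under 0.05, 5 were lower and 1 higher by edgeR, and at an adjusted p under 0.05 DESeq2 gave 3 lower and 1 higher. The higher one was Dnhd1, a dynein heavy chain domain gene (edgeR log2 fold change 1.37, SE 0.36, adjusted p = 0.0976).

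Mrpl17, which encodes a protein of the large subunit of the mitochondrial ribosome, lies next to the proximal end of the cluster (chr7:105803206-105811099). It held 1879 and 2048 counts in WT against 622 and 656 in Vil-CREPTKO and fell by 1.50 on the log2 scale (SE 0.14, adjusted p = 0.00229 by edgeR), with the groups far apart. Taf10, a subunit of the general transcription factor TFIID, held 2815 and 3251 counts in WT against 1371 and 1477 in Vil-CREPTKO and fell by 0.98 (SE 0.13, adjusted p = 0.00835 by edgeR). Between and beside these, Tpp1, a lysosomal peptidase, had a log2 fold change of 0.14 (adjusted p = 0.669 by edgeR), and Rrp8, a nucleolar methyltransferase, one of -0.09 (0.878). Fam160a2 and Arfip2, which were among the most abundant genes of the window, were at -0.05 (adjusted p = 0.91 by edgeR) and -0.31 (0.262). Genes that passed and genes that did not thus lay side by side. Gm45912, a short row at the end of 9130208D14Rik, had a log2 fold change of -0.51 (adjusted p = 0.0658 by edgeR), and it passed with DESeq2 (adjusted p = 0.049) and with no filter on low counts (adjusted p = 0.0185 by edgeR).

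Farther out, from 0.5 to 2 Mb beyond the outermost listed copies, 14 genes were tested and 0 passed at an adjusted p under 0.05 in either direction by edgeR or DESeq2, with 2 lower at an unadjusted p under 0.05 by edgeR. From 2 to 5 Mb, edgeR called 1 of 67 genes lower, Il18bp. From 5 to 10 Mb it called 2 of 85 lower, Dnajb13 and Coa4, against 1.34% of all genes tested. At an unadjusted p under 0.05, edgeR gave 3 lower and 1 higher from 2 to 5 Mb. From 5 to 10 Mb it gave 12 lower and 5 higher (9.76% of all genes tested were lower). At an adjusted p under 0.05, DESeq2 gave 1 lower and 0 higher from 2 to 5 Mb. It gave 4 lower and 1 higher from 5 to 10 Mb. The median log2 fold change was -0.32 within 0.5 Mb and between -0.06 and 0.03 in the farther ranges, against -0.01 for all genes tested.

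**Figure D3:**
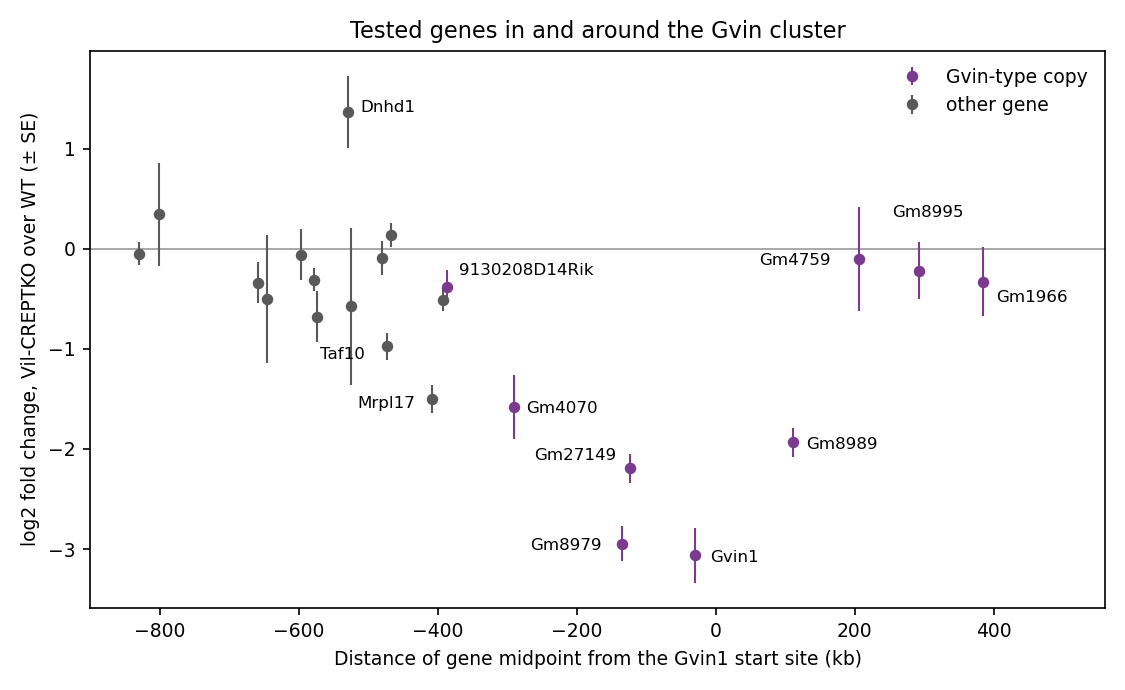
Log2 fold change (Vil-CREPTKO over WT, bars ± SE) of every tested gene in the cluster and within 0.5 Mb of it, against the distance of its midpoint from the Gvin1 start site in kb. The Gvin-type copies from Gm4070 to Gm8989 lie at -1.58 or below, the outer copies between -0.38 and -0.10, and of the other genes Mrpl17 and Taf10 passed the test.

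The Gvin genes take their name from their response to interferon, so the other genes of that response were read in the same fit. The IRG list had 16 genes, of which 12 passed the filter. At an adjusted p under 0.05 edgeR gave 0 lower and 0 higher and DESeq2 gave 4 lower and 0 higher, and at an unadjusted p under 0.05, 5 were lower by edgeR, as were 9.76% of all genes tested. Of the 12, 11 had a negative log2 fold change (50.9% of all genes tested), with a median of -0.89. The list leaned on 1 library: 10 of the 12 were higher in WT replicate 2 than in WT replicate 1, and without WT replicate 2 the median was -0.27, whereas without WT replicate 1 it was -1.25 and 6 of the 12 passed. The summed level was 145 and 261 CPM in WT and 117 and 134 CPM in Vil-CREPTKO.

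Igtp, a regulatory IRG protein, shows this pattern, with 14.9 and 53.0 CPM in WT and 13.7 and 19.7 CPM in Vil-CREPTKO. It had a log2 fold change of -1.02 (SE 0.47, adjusted p = 0.38 by edgeR), which turned to 0.17 without WT replicate 2. Irgm1, known for its part in autophagy and in defence against intracellular bacteria, was at 32.9 and 47.9 CPM in WT and 29.0 and 34.1 CPM in Vil-CREPTKO (log2 difference -0.36, adjusted p = 0.442 by edgeR). Irgq, the third of the most abundant, had a log2 fold change of -0.28 (adjusted p = 0.434 by edgeR). The order of the WT libraries was the opposite in the Gvin genes: Gvin1, Gm8979, Gm4070, Gm8995 and Gm1966 were each higher in WT replicate 1, the library with the lower IRG level.

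In the GBP list, 10 of 11 genes passed the filter, 0 were lower and 0 higher at an adjusted p under 0.05 (edgeR and DESeq2, with 1 lower by edgeR at an unadjusted p under 0.05), and the median log2 fold change was -0.46. Its summed level was 38.1 and 38.4 CPM in WT and 33.8 and 26.9 CPM in Vil-CREPTKO. Gbp2 stood at -0.28 (SE 0.29, adjusted p = 0.741 by edgeR), Gbp4 at -0.24 (0.754), Gbp7 at -0.48 (0.447) and Gbp9 at -0.48 (0.457). Mx1 and Mx2, antiviral dynamin-like GTPases, were at 0.17 (adjusted p = 0.876 by edgeR) and -0.68 (0.464). Across the 9 tested Gvin-type copies the median was -1.58, lower than in each of these 3 families, and no test of that difference was made because the listed copies were chosen for theirs.

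**Figure D4:**
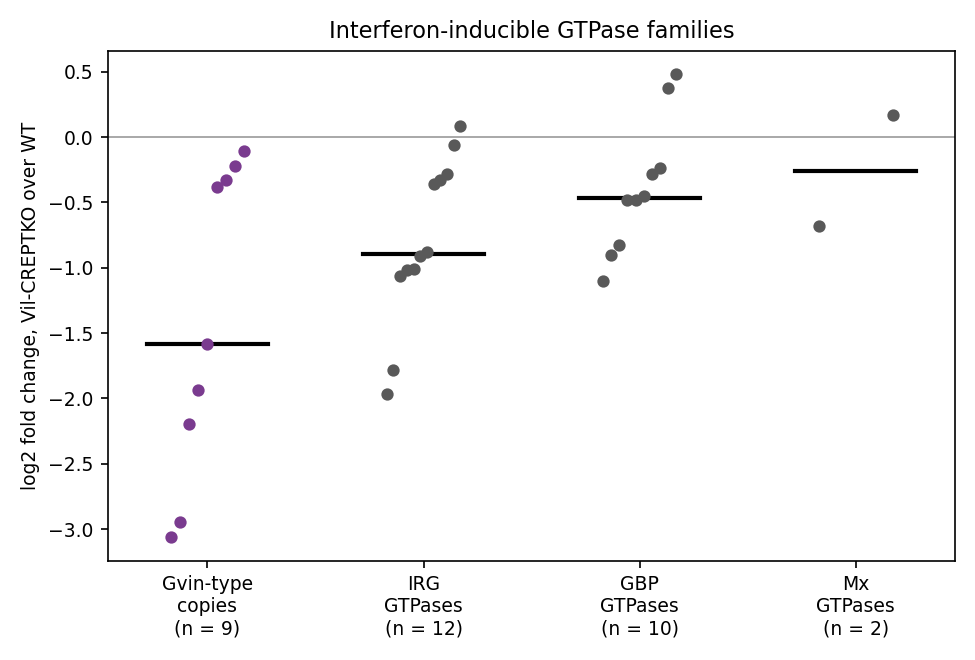
Log2 fold change (Vil-CREPTKO over WT) of each tested gene in 4 families of interferon-inducible GTPases, with the median of the family as a bar. The Gvin-type copies fall into a group of 5 at -1.58 or below and a group of 4 near 0, while the medians are -0.89 for IRG, -0.46 for GBP and -0.26 for Mx genes.

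Of 40 interferon-stimulated genes of other kinds, 3 were lower and 0 higher at an adjusted p under 0.05, by edgeR and by DESeq2. At an unadjusted p under 0.05, 15 of the 40 were lower and 0 higher by edgeR (9.76% of all genes tested were lower), and 35 of the 40 had a negative log2 fold change (50.9% of all genes tested). Oas1g, of the oligoadenylate synthetase family that senses viral RNA, fell from 12.6 and 14.1 CPM to 5.43 and 4.95 CPM (log2 fold change -1.37, SE 0.18, adjusted p = 0.00809 by edgeR). Ifitm3, which blocks entry of viruses, fell by 0.84 on the log2 scale (SE 0.15, adjusted p = 0.0238 by edgeR). Irf7, a transcription factor of the type I interferon response, fell by 0.82 (SE 0.15, adjusted p = 0.0262 by edgeR), but did not pass without WT replicate 2 (log2 fold change -0.61, adjusted p = 0.101 by edgeR). These 3 genes were lower in both Vil-CREPTKO libraries than in both WT libraries. The most abundant members did not pass: Lgals3bp was at -0.15 (adjusted p = 0.752 by edgeR), Parp14 at -0.06 (0.925) and Ifit1bl2 at 0.38 (0.439). The median log2 fold change was -0.40, and -0.16 without WT replicate 2.

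Of 18 targets of interferon gamma, 1 was lower and 0 were higher at an adjusted p under 0.05 by edgeR, with a median of -0.34. At an unadjusted p under 0.05, 5 were lower and 0 higher by edgeR (9.76% of all genes tested were lower). Of the 18, 15 had a negative log2 fold change (50.9% of all genes tested). The gene that passed was H2-Aa, an MHC class II chain, at 108 and 204 CPM in WT and 66.0 and 46.7 CPM in Vil-CREPTKO (log2 difference -1.47, SE 0.28, adjusted p = 0.0323 by edgeR). Its partner genes H2-Ab1 (-1.03, adjusted p = 0.0943 by edgeR) and Cd74 (-1.23, 0.0548) did not pass. Which of these MHC class II genes passed turned on the setting. With DESeq2, H2-Aa did not pass (adjusted p = 0.0813), while H2-Ab1 (adjusted p = 0.0011) and Cd74 (adjusted p = 2.3e-05) did. H2-Ab1 and Cd74 also passed with scaling by library totals, with no filter on low counts and without WT replicate 1, and Cd74 with the replicate block (adjusted p = 0.038 by edgeR) and with at least 10 counts in every library (adjusted p = 0.042 by edgeR). B2m, the light chain of MHC class I, had a log2 fold change of 0.08 (adjusted p = 0.925 by edgeR). All 18 were higher in WT replicate 2 than in WT replicate 1, and without WT replicate 2 the median was 0.0034.

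The pathway upstream gave no gene past the test. Of 7 interferon and related cytokine genes only Il18 passed the filter (log2 fold change -0.11, SE 0.20, adjusted p = 0.88 by edgeR), and 5 were at or under the floor of 3 counts in every library. The 12 receptor and signalling genes had 0 lower and 0 higher at an adjusted p under 0.05 (edgeR and DESeq2, with 1 lower by edgeR at an unadjusted p under 0.05) and a median of -0.04. Irf1 was at 0.02 (adjusted p = 0.972 by edgeR), and Jak2, Ifngr1 and Ifngr2 were at 0.11, 0.10 and -0.13 (0.869, 0.778 and 0.759). Over the 7 lists of interferon genes, 4 of 95 tested genes were lower and 0 higher at an adjusted p under 0.05. Among all genes tested, 2.29% were lower and 0.423% higher. A negative log2 fold change was found in 78 of the 95, against 50.9% of all genes tested, and the median was -0.33. These signs leaned on WT replicate 2. Without it, the negative ones went from 35 to 25 for interferon-stimulated genes and from 15 to 9 for interferon gamma targets. They went from 11 to 9 for IRG, from 7 to 3 for receptor and signalling genes and from 1 to 0 for ligands. GBP stayed at 8 and Mx at 1. The number lower was 21 without WT replicate 1 and 3 to 4 without each of the other libraries in turn, 9 by DESeq2 and 10 with scaling by library totals.

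Markers of other cell types were read beside the cluster. All 7 markers of T and intraepithelial lymphocytes had a negative log2 fold change (50.9% of all genes tested), with a median of -0.42 and none at 0 counts in any library. All 7 were higher in WT replicate 1 than in WT replicate 2, as were the tested copies of the Gvin list. This order was not particular to them: all 5 myeloid markers had it too, with a positive median log2 fold change of 0.53. The share of all genes with this order was not counted. The median of the lymphocyte markers was -0.13 without WT replicate 1 and -0.59 without WT replicate 2, with all 7 still negative in each fit. The summed level of these markers was 675 to 850 CPM in WT and 531 to 628 CPM in Vil-CREPTKO. None of the 7 passed at an adjusted p under 0.05 by edgeR or DESeq2 (2 at an unadjusted p under 0.05 by edgeR), and the 3 most abundant, Gzma, Gzmb and Cd8a, stood at -0.42, -0.29 and -0.45. Tuft cell markers summed to 98.9 to 134 CPM in WT and to 62.4 to 62.5 CPM in Vil-CREPTKO, where Trpm5 fell by 1.56 on the log2 scale (SE 0.16, adjusted p = 0.00352 by edgeR) and Dclk1 had a log2 fold change of -0.41 (0.281). The part of either cell type in the difference of the Gvin genes was not tested.

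Among the other lists of cell type and gut region markers, 0 genes were past the adjusted threshold by edgeR, and by DESeq2 1 B and plasma cell marker and 1 marker of the proximal small intestine were higher. At an unadjusted p under 0.05 edgeR gave 1 higher in each of these and in the myeloid list and 1 lower in the distal small intestine list. B and plasma cell markers summed to 12.3 to 13.9 CPM in WT and 18.5 to 28.2 CPM in Vil-CREPTKO. The sums of myeloid markers (17.7 to 25.6 against 18.8 to 33.6 CPM), of stromal and endothelial markers (12.2 to 13.3 against 9.86 to 17.9 CPM), of Paneth cell markers (2817 to 3051 against 2649 to 4205 CPM), of goblet cell markers (830 to 998 against 737 to 903 CPM) and of enterocyte markers (3920 to 5113 against 4441 to 7316 CPM) overlapped between the groups. So did those of the proximal small intestine (2981 to 4031 against 3716 to 5794 CPM) and of the colon (328 to 407 against 396 to 446 CPM). Markers of the distal small intestine summed to 60.8 to 153 CPM in WT and to 15.0 to 45.5 CPM in Vil-CREPTKO, and most of that sum was Cubn (log2 fold change -1.86, SE 0.53, adjusted p = 0.131 by edgeR). Whether the segment of gut taken moved with the Gvin genes was not tested.

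Genes whose profile over the 4 libraries was most like that of the summed cluster were found by the Euclidean distance of log2 CPM centred on each gene's mean, among the 12163 genes whose log2 CPM averaged 1 or more. The nearest was Novel00367, an unnamed locus without coordinates in the table, at a distance of 0.312, with 384 and 284 counts in WT against 47 and 36 in Vil-CREPTKO. It was followed by Ccdc17 (0.448), Gprin1 (0.486), Ankle1 (0.502) and Lrrc75b (0.593). All 5 were low in both Vil-CREPTKO libraries, as the measure requires, with log2 fold changes from -2.87 to -2.37. None of the 4 named genes lies on chromosome 7.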

How the data were processed

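RNA of intestinal crypts was sequenced in 2 WT and 2 Vil-CREPTKO libraries, grouped by their titles. The authors deposited whole-number read counts per gene, 1 column per library with no pooling. Their methods describe Bowtie2 and RSEM on GRCm38.p6. The submitters' processing notes also name CASAVA 1.8. Tool versions of the mapping, the annotation, the strand setting and the treatment of reads that match several copies are not given in the sources used here, so reads of overlapping genes, such as the antisense gene Gm20663 across Gm4070 and Gm8979, cannot be told apart. The methods name a BGISEQ instrument, the public record an Illumina one.

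Of 53845 rows, 53274 matched GENCODE M21 (GRCm38), which gave symbols, coordinates and transcripts. Loci were found with BLAST 2.17.0, and identity was taken from its best alignment of each pair. Base positions that differ between Gvin1 and Gm4070 and the printed stretches were placed with a MAFFT 7.526 alignment. Printed sequences were read from the GENCODE M21 transcripts. The counts were fitted with edgeR 4.0.16 under R 4.3.3 (filterByExpr, TMM, glmQLFit and glmQLFTest, two-sided, group as the only term) over 17504 genes, with Benjamini-Hochberg adjustment over all of them. The SE of a log2 fold change is its size divided by the root of F. For the cluster sum, the rows of the copies were replaced by 1 row. CPM is TMM-scaled, and per-kilobase levels divide by exon length. The common biological coefficient of variation was 0.188. Replicates were not the same library deposited more than once (chi-square per gene 49.8 in WT and 70.1 in Vil-CREPTKO). The pipeline was tested on simulated data.

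The copies and gene lists were chosen with earlier results of these data known. Genes named besides the 6 copies were those of each list and of the neighbourhood with an adjusted p under 0.05 and the 3 of highest mean CPM, with Irf1, Irgm1, Igtp, Gbp2, Rprd1b and the 5 nearest profiles. The values of 1 other gene that the rule names are not reported here. The other Gvin-type copies, Dnhd1, Gm45912, Rrp8, Tpp1, H2-Ab1, Cd74, Il18bp, Dnajb13, Coa4 and Cubn were named after their values were seen where the rule did not already name them. Lists were of IRG, GBP and Mx GTPases, interferon-stimulated genes, interferon gamma targets, ligands, receptors and signalling, and of cell type, gut region and sex markers. Alternatives were DESeq2 1.42.0, RLE, upper-quartile and library-total scaling, no filter, at least 10 counts in every library, a replicate block, each library left out, the sum without Gm8979 and any fold change. The sum over all 11 loci was added after seeing the data.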

Additional observations from a re-analysis of the deposited data

How the results depend on the processing

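The log2 fold change of the sum of the 6 copies was -2.74. It was -1.25 without its most abundant member and -1.36 when all 11 loci were summed, an alternative chosen after seeing the data. Over the other settings the ranges were -3.04 to -2.84 for Gm8979 (-2.84 without WT replicate 1), -3.35 to -2.70 for Gvin1, -1.97 to -1.26 for Gm4070, -0.49 to -0.15 for Gm1966 and -0.60 to 0.21 for Gm8995. Gm8995 reversed, to 0.21 in the fit that left out WT replicate 1 and to 0.085 in that without Vil-CREPTKO replicate 2.

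Genes called lower (235) numbered 379 with library totals, 450 with no filter on low counts and 400 at any fold change. Genes called higher (52) numbered 87 with DESeq2, 163 with no filter and 62 to 135 with a library left out (121 without WT replicate 1, 87 without WT replicate 2, 135 without Vil-CREPTKO replicate 2). Genes of the interferon lists that were lower (4) numbered 9 with DESeq2, 10 with library totals, 18 with no filter and 3 to 21 with a library left out. There were 2 higher without Vil-CREPTKO replicate 2 and 0 without each other library. Of the neighbouring genes, 1 was higher with DESeq2 and with no filter. Library totals shifted the median of all genes to -0.10. The cause of these changes was not tested.

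Genes that did not pass in the reported fit could change sign. With library totals, B2m was at -0.015 and Irf1 at -0.068. With each library left out in turn, the ranges were -0.91 to 0.74 for Gm4759, -1.66 to 0.17 for Igtp, -0.57 to 0.041 for Gbp4, -0.36 to 0.56 for Mx1, -0.32 to 0.25 for Parp14, -0.16 to 0.31 for B2m, -0.47 to 0.19 for Il18, -0.12 to 0.34 for Jak2, -0.28 to 0.023 for Ifngr2, -0.16 to 0.23 for Irf1, -0.19 to 0.024 for Rrp8 and -0.10 to 0.0047 for Fam160a2.

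The labels do not say whether the replicate numbers pair the samples, and these counts cannot settle it. Across genes, the replicate 1 minus replicate 2 difference in WT had a correlation of 0.0277 with that in Vil-CREPTKO. Yet Gvin1, Gm8979, Gm4070, Gm8995 and Gm1966 were each higher in replicate 1 in both groups. 9130208D14Rik and Gm27149 were so in WT alone. With the replicate block, the sum of the 6 copies was at -2.74 (SE 0.23), Gvin1 at -3.05, Gm8979 at -2.94, Gm4070 at -1.60, Gm8995 at -0.21 and Gm1966 at -0.32, while 269 genes passed as lower and 67 as higher. Of the 287 genes called without it, 279 were called again. The block gave a smaller SE for Gvin1 (0.18 against 0.27), Gm8995 (0.16 against 0.28) and Gm4070 (0.27 against 0.32). It gave a larger one for Gm8979 (0.23 against 0.18) and Gm1966 (0.37 against 0.34). With 2 libraries a group, the spread between libraries limits the precision of the abundant copies. Gm17757 was at or under 1 count, and only 2.89% of its 100-base stretches are its own. Depth and the treatment of shared reads cannot be told apart for it.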
